A study of Mus musculus with 20 samples.

Results

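The dermis of skin wounds that express Sonic hedgehog was set against the epidermis of the same wounds. The 6 libraries of this comparison, of 20 in the series, were chosen by their labels: 3 of wound dermis and 3 of wound epidermis from mice of genotype K14-CreER; LSL-Shh (below, Shh wounds), numbered Tg-9101, Tg-9231 and Tg-9233 in both tissues. In these mice the K14 promoter, active in basal keratinocytes, drives a tamoxifen-inducible Cre that removes a stop cassette ahead of Shh, so the transgene was switched on in the epidermis and its offspring cells and in no dermal cell by design. Tamoxifen was given to Shh and control mice alike. The mice were 4 to 5 weeks old and of mixed strain, wounds were taken 2 days after the scab had detached, and the layers were parted in warm EDTA. Wounds of wild type mice (WT wounds, 3 libraries per tissue, numbered Con-9097, Con-9098 and Con-9229) and wild type embryonic skin (E14.5 skin, 4 libraries per tissue) serve here to show where the layers of Shh wounds differ by another amount. The sources used here do not give the sex behind a library, the study counts more wounds and mice per condition than the libraries given here without saying how wounds were assigned to libraries, and libraries with the same number were read as the same animal.

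Skin is built of an epithelium and a connective tissue that are parted by a basement membrane and made by different cells. Basal keratinocytes anchor to that membrane through hemidesmosomes, divide, and send daughters upward that cross-link a cornified envelope. Fibroblasts of the dermis secrete collagen and the other fibres of the matrix, and vessels, nerves and resident immune cells lie among them. Hair follicles arise where the layers exchange signals: epithelial Wnt, ectodysplasin and Sonic hedgehog proteins act on mesenchymal cells, which gather into a condensate and signal back with BMP, FGF and Wnt modulators. In the Hedgehog pathway the ligand binds Patched receptors, which releases Smoothened, and GLI factors then switch on targets that include Gli1 and Ptch1 themselves.

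A total of 15454 genes averaged at least 1 CPM over the 6 libraries (CPM are reads of a gene per 1000000 reads of its library), and 6180 of them (40.0%) differed between the layers at a Benjamini-Hochberg adjusted p under 0.05 in limma on log2(CPM + 1). Of these, 2699 (17.5%) were higher in dermis and 3481 (22.5%) in epidermis, and the larger count was dermal in edgeR (3092 dermal and 2848 epidermal), in DESeq2 (3478 and 3378) and without both libraries of animal Tg-9231 (1527 and 1357). Below, "rose", "higher" and "lower" refer to such calls, and counts within a list stand against 17.5% dermal and 22.5% epidermal among all genes. With 3 libraries against 3, all dermis values lay above all epidermis values for 21.9% of genes, and the reverse held for 35.5%. Differences are given as log2 of dermis over epidermis ± SE, positive where dermis was higher, and folds are ratios of mean CPM. The median gene stood at −0.35 on that scale and at −0.23 when the libraries were rescaled by trimmed means. Reads per library ran from 3920969 to 8002999 in dermis and from 7167771 to 10810590 in epidermis. The dermis library of animal Tg-9233 stood apart, with reads for 12044 genes, where the other dermis libraries had 18606 and 18734 and the epidermis libraries 18132 to 18602, and the number of calls moved to 8471 when it was left out. Leaving out any other single library gave 4240 to 6277 calls. A fit with the animal as a block, which compares the layers within animals, gave 5626 calls, 5432 of them shared. A lower value in one layer of bulk tissue can mean fewer cells of a type or less RNA per cell, and the libraries cannot tell these apart.

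The markers that define each layer matched the labels. All 6 dermal markers (Col1a1, Col1a2, Col3a1, Dcn, Lum and Pdgfra) were higher in dermis and all 6 epidermal markers (Krt5, Krt14, Krt1, Krt10, Trp63 and Cdh1) were higher in epidermis, and no library of either kind lacked them. Each layer also held a small share of the other's markers. The dermis of animals Tg-9101, Tg-9231 and Tg-9233 carried 4.77, 11.8 and 13.6% of the epidermal level of Krt14, the basal keratin, and 1.06, 1.62 and 1.3% of that of Krt10, the keratin of the differentiating layers. Krt14 was thus present in dermis at a larger share of its epidermal level than Krt10 in every animal. The epidermis in turn carried 0.477, 0.944 and 1.08% of the dermal level of Col1a2. Values of an epidermal gene in dermis at or under the share of Krt14, and of a dermal gene in epidermis near the share of Col1a2, are not told apart from such carry-over.

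**Figure D1:**
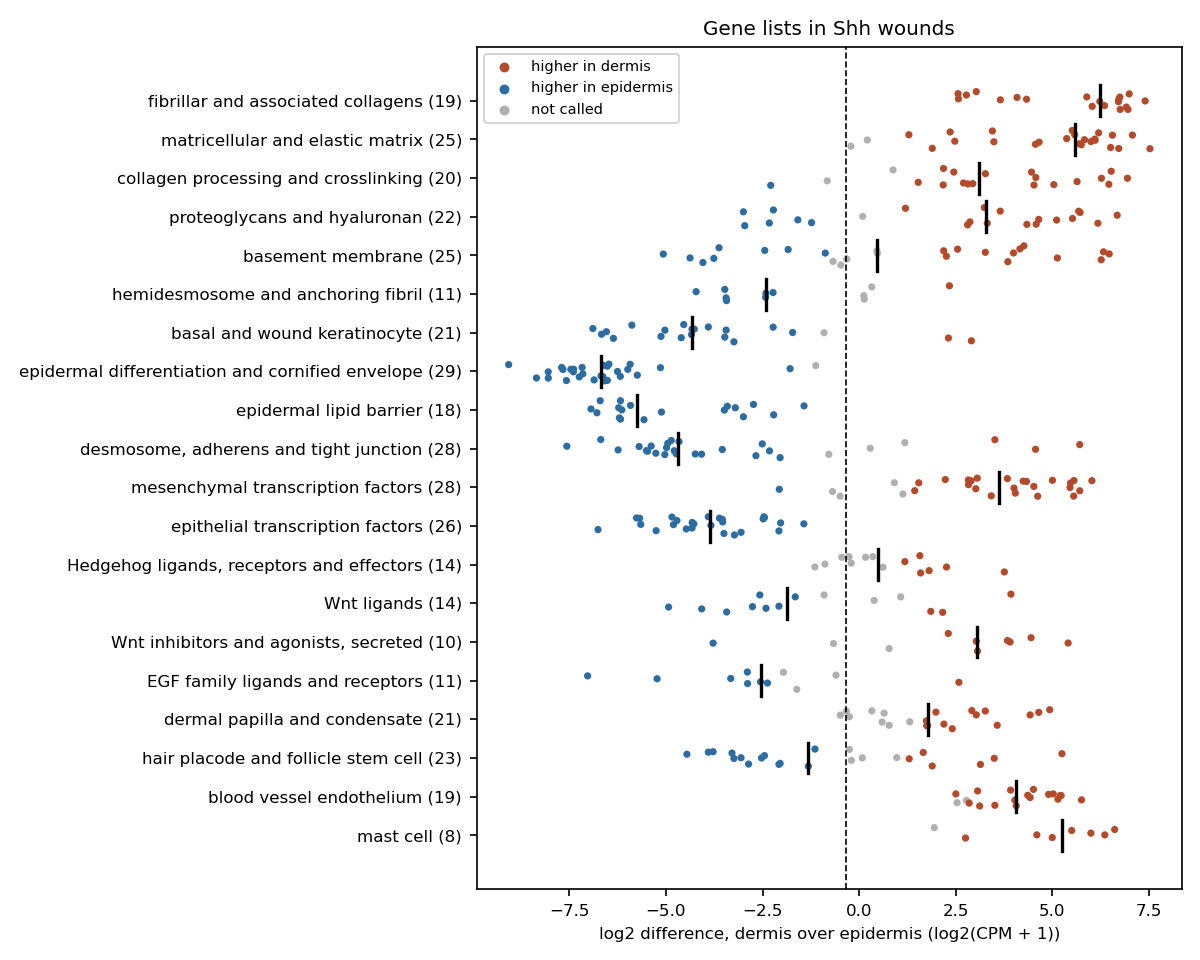
Log2 difference of dermis over epidermis in Shh wounds for every tested member of 20 gene lists; points are genes, coloured where the gene was called, vertical bars are list medians, and the dashed line is the median of all 15454 genes (−0.35). Collagens, matricellular genes and endothelial genes lie to the right, on the dermal side, and cornified envelope, lipid barrier and epithelial transcription factor genes to the left.

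Collagen dominated the dermis of Shh wounds. Col1a1, which encodes the first chain of type I collagen, had 96819, 126818 and 180396 CPM in dermis (animals Tg-9101, Tg-9231 and Tg-9233, the order used throughout), against 346, 938 and 1405 CPM in epidermis. Every dermis library lay far above every epidermis library, and the difference was 7.40 ± 0.55 (adjusted p = 9.6e-05). Reads of Col1a1, Col1a2 and Col3a1 together made up 22.8%, 28.5% and 35.7% of all dermal reads and 0.109%, 0.254% and 0.343% of epidermal reads. All 19 tested fibrillar and associated collagens were higher in dermis, with a median difference of 6.23. Col5a1, which limits the width of collagen fibrils, had 7049, 10226 and 12702 CPM in dermis, against 40.4, 94.2 and 119.8 CPM in epidermis (118-fold). The member with the smallest difference among the most abundant was Col12a1, which decorates fibril surfaces: 6631, 7122 and 5543 CPM in dermis, against 336, 341 and 277 CPM in epidermis, a 20.2-fold difference. Reads taken by these collagens lower the CPM of every other gene in dermis by the same factor.

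The enzymes that modify and cross-link collagen followed the fibres, at smaller differences. Of 20 tested, 17 were higher in dermis, 1 in epidermis, and the median was 3.10. Serpinh1, the collagen chaperone of the endoplasmic reticulum, had 1309.9, 2199.7 and 2408 CPM in dermis, against 53.8, 58.7 and 58.7 CPM in epidermis (5.04 ± 0.30, adjusted p = 5e-05). Lox, the lysyl oxidase that cross-links collagen and elastin, had 550.1, 515 and 659 CPM in dermis, against 4.63, 3.37 and 8.79 CPM in epidermis (103-fold). Bmp1, the procollagen C-proteinase, had the narrower difference of 2.70 ± 0.26, with 542, 824 and 744 CPM in dermis, against 100.4, 116 and 101 CPM in epidermis. The exception was Leprel1, a collagen prolyl 3-hydroxylase, with 4.59, 7 and 15.6 CPM in dermis, against 42.5, 51.1 and 37.1 CPM in epidermis (−2.29 ± 0.43, adjusted p = 0.0055).

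Matricellular and elastic fibre genes were higher in dermis for 23 of 25 tested members and higher in epidermis for none, with a median of 5.58. Sparc, a collagen-binding protein of remodelling tissue, had 8037, 11434 and 10034 CPM in dermis, against 181, 227 and 202 CPM in epidermis (5.58 ± 0.25). Fbn1, the main microfibril protein, was among the 12 genes with the largest dermal difference: 3472, 2101 and 2127 CPM in dermis, against 6.38, 13.7 and 21.9 CPM in epidermis (183-fold). Postn and Fn1 (periostin and fibronectin) differed by 4.56 and 6.10. Tnc (tenascin C) was nearer to parity and had 762, 974 and 906 CPM in dermis and 241, 272 and 198 CPM in epidermis (1.89 ± 0.25, adjusted p = 0.0011), so that the epidermal level was 31.6, 28 and 21.9% of the dermal one.

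The other genes with the largest dermal differences were not all matrix genes. Meg3, a maternally expressed long noncoding RNA, headed them with 348, 898 and 727 CPM in dermis, against 0.833, 2.76 and 2.37 CPM in epidermis (7.74 ± 0.46, adjusted p = 4.9e-05). Miat, another long noncoding RNA, had 375, 719 and 641 CPM in dermis, against 0.648, 4.39 and 4.88 CPM in epidermis (175-fold). Svep1, a large adhesion protein of mesenchyme and lymphatic surroundings, Aebp1, a collagen-binding protein, Adamts2, the procollagen N-proteinase, and Dchs1, a giant cadherin, differed by 7.38, 6.98, 6.94 and 6.90. No dermis library overlapped an epidermis library for any of them.

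Most proteoglycan and hyaluronan genes were higher in dermis. Of 22 tested, 15 were higher in dermis and 6 in epidermis, against 17.5% and 22.5% of all genes. The small leucine-rich members of the dermis led: Bgn had 1002, 1233 and 1391 CPM in dermis, against 13.6, 16.2 and 17 CPM in epidermis (77.4-fold), and Dcn and Lum differed by 5.72 and 5.68. Vcan, which forms large hyaluronan-bound aggregates and marks the dermal papilla, had 724, 816 and 474 CPM in dermis, against 41.3, 14.7 and 25.8 CPM in epidermis (4.65 ± 0.42). On the epidermal side stood cell-surface members. Sdc1, the main syndecan of keratinocytes, had 40.5, 60.6 and 58.1 CPM in dermis, against 362, 525 and 373 CPM in epidermis (−2.96 ± 0.29, adjusted p = 0.00029), and the hyaluronan receptor Cd44 differed by −1.23 (adjusted p = 0.0086).

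Genes of the dermo-epidermal junction fell on both sides. Of 25 basement membrane genes tested, 12 were higher in dermis and 8 in epidermis, against 17.5% and 22.5% of all genes. Collagen IV, nidogen and perlecan transcripts were dermal: Col4a1 had 1034, 1398 and 1123 CPM in dermis, against 57.3, 68 and 69.6 CPM in epidermis (18.2-fold), and Nid1, the linker of collagen IV and laminin, had 668, 997 and 981 CPM in dermis, against 7.31, 7.66 and 16.7 CPM in epidermis (83.4-fold). The chains of laminin 332, the ligand of the hemidesmosome, were epidermal. Lama3 had 24.1, 31.5 and 18.6 CPM in dermis, against 297, 377 and 267 CPM in epidermis (−3.63 ± 0.29), and Lamb3 differed by −3.76 ± 0.40. Lama5 was nearer to parity, with 98.6, 133 and 98.2 CPM in dermis, against 174, 249 and 186 CPM in epidermis (−0.88 ± 0.27, adjusted p = 0.038), and its call was lost with rescaling by trimmed means (adjusted p = 0.072), with the animal as a block (adjusted p = 0.051) and in 4 of the 6 fits that left out 1 library (adjusted p = 0.083 without dermis Tg-9101, 0.072 without epidermis Tg-9101, 0.14 without epidermis Tg-9231 and 0.1 without epidermis Tg-9233). Agrn differed by −0.32 ± 0.22, which was no call (adjusted p = 0.28).

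Of 11 hemidesmosome and anchoring fibril genes, 1 was higher in dermis and 7 in epidermis. Col17a1, the transmembrane collagen of the hemidesmosome, had 38.2, 79.3 and 79.1 CPM in dermis, against 1248, 1579 and 826 CPM in epidermis (−4.22 ± 0.40, adjusted p = 0.00027). The dermal member was Col7a1, which forms the anchoring fibrils that tie the membrane to the dermis: 3251, 3704 and 4033 CPM in dermis, against 521, 947 and 762 CPM in epidermis (2.34 ± 0.29, adjusted p = 0.00096). Both layers held it in quantity, since the epidermal level was 16, 25.6 and 18.9% of the dermal one, far above the shares of the fibrillar collagens. Plec and Dst, which link keratin to the hemidesmosome, differed by 0.13 ± 0.25 (adjusted p = 0.7) and 0.33 ± 0.31 (adjusted p = 0.43), no calls. Among other integrin subunits, 8 of 16 were higher in dermis and 2 in epidermis. These 16 leave out the integrin subunits of the hemidesmosome, which are counted above and were called epidermal. Itga11, the fibroblast receptor for collagen, differed by 6.28 ± 0.47, and Itgb6, an epithelial subunit, by −4.28 ± 0.50. The other epidermal one of the 16, Itga2, differed by −0.996 ± 0.32 (adjusted p = 0.047), a call lost with the animal as a block (adjusted p = 0.084) and without any single library other than dermis Tg-9233 (adjusted p = 0.086 to 0.16). With all libraries, Itga2 was also lost with a smaller pseudocount, without a filter, with a trend, under both rescalings, in edgeR and DESeq2 and in the fit of all wound libraries (adjusted p = 0.051 to 0.22).

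Barrier formation separated the epidermis furthest. Of 29 tested genes of terminal differentiation and the cornified envelope, none was higher in dermis and 28 in epidermis, with a median of −6.68, and of 18 genes of the lipid barrier all 18 were higher in epidermis. Hrnr, a profilaggrin-related envelope protein, had 17.5, 9.5 and 0.765 CPM in dermis, against 8152, 2045 and 3210.5 CPM in epidermis, the largest epidermal difference among abundant genes (−9.07 ± 0.94, adjusted p = 0.00039). Its epidermal values spread widely between animals, and the lowest still lay far above the highest dermal value. Crct1, a cysteine-rich C-terminal protein of the same locus, had 6.06, 3.37 and 0.255 CPM in dermis, against 1389.8, 1267 and 767 CPM in epidermis (353-fold higher in epidermis). Cdsn, the corneodesmosome protein that holds cornified cells together, had 12.6, 5.62 and 4.08 CPM in dermis, against 2034, 2374 and 1751 CPM in epidermis (276-fold).

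Ivl and Lor, the involucrin and loricrin of the envelope, had 9.5, 3.75 and 0.765 CPM and 75.4, 24.2 and 53.6 CPM in dermis, against 882, 870.2 and 795 CPM and 5933, 6551 and 8098 CPM in epidermis. The protease Klk7, which sheds cornified cells, differed by −7.46. Flg2 and Rptn, both of the S100-fused family, differed by −7.70 and −7.67. Flg is listed under 4 gene IDs and its reads may have been split among them; the ID with the most reads differed by −8.05. Cyp2b19, a cytochrome of keratinocytes, had 0.983, 0.75 and 0 CPM in dermis, against 213, 255 and 403 CPM in epidermis (503-fold). Among lipid barrier genes, Abca12, the transporter that loads lamellar granules, had 12.5, 7.25 and 18.4 CPM in dermis, against 1330.3, 1292 and 1684 CPM in epidermis (−6.79 ± 0.36), and Elovl4, which lengthens the fatty acids of barrier ceramides, differed by −6.22 ± 0.38. Tchh, the trichohyalin of hair inner root sheath and tongue, was the member of the envelope list without a call: 32.6, 22.9 and 109.9 CPM in dermis, against 84.5, 137 and 77.2 CPM in epidermis (adjusted p = 0.18), with the highest dermal value in animal Tg-9233 (adjusted p = 0.0015 without dermis Tg-9233, an epidermal call).

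Many of the barrier genes lie in a single stretch of the genome. The epidermal differentiation complex, from S100a1 to S100a10 on chromosome 3 (90314956 to 93368565 in NCBIM37), lists 65 genes, of which 52 were tested. Of these, 44 (84.6%) were higher in epidermis, against 24.4% of 714 tested genes on the rest of chromosome 3 and the 22.5% of all genes. The 3 genes of the stretch that were higher in dermis were all S100 calcium-binding proteins of mesenchymal and other cells, S100a4, S100a6 and S100a13. S100a6 had 314, 224 and 164 CPM in dermis, against 101, 105 and 63.6 CPM in epidermis (1.35 ± 0.35, adjusted p = 0.02). These 3 calls depended on single libraries. That of S100a6 was lost without dermis Tg-9231 or any epidermis library (adjusted p = 0.0501 to 0.083). Those of S100a4 (adjusted p = 0.043) and S100a13 (adjusted p = 0.037) were lost without any single library other than dermis Tg-9233 (adjusted p = 0.052 to 0.15 for S100a4 and 0.073 to 0.13 for S100a13).

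Proximal promoters of leading genes of both layers are shown so that the letters of their core can be read beside the values. Windows of 150 bases, 130 before and 20 after the RefSeq start of GRCm38.p6 (an assembly later than that of the counts), are printed 5′ to 3′ on the gene's strand for 2 dermal and 4 epidermal genes, with the letters TATAAA and TGACTCA, or its reverse complement, in capitals. The first is the core promoter's TATA box, the second the letters of an AP-1 element. Krtdap, a differentiation-associated keratinocyte protein, and its window were chosen after its values had been seen (17, 27.7 and 6.89 CPM in dermis, against 1601, 1488 and 1316 CPM in epidermis).
Lor (chr3:92083123-92083272, - strand): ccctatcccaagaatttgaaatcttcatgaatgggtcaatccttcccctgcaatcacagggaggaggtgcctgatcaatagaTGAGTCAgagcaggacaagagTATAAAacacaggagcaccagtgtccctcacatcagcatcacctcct
Ivl (chr3:92573716-92573865, - strand): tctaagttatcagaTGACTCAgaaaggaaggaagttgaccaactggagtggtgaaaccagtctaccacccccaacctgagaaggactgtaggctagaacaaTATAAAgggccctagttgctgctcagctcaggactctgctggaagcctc
Krtdap (chr7:30787775-30787924, + strand): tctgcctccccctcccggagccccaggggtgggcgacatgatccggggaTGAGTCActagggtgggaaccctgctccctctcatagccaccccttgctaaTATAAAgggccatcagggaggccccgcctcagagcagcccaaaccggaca
Krt10 (chr11:99389345-99389494, - strand): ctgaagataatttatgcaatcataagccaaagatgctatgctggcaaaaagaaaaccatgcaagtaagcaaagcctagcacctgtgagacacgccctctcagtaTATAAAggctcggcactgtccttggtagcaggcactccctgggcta
Col1a2 (chr6:4505488-4505637, + strand): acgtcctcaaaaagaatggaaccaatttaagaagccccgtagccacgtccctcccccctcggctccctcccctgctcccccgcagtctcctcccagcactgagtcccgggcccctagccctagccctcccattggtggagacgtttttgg
Col5a1 (chr2:27886295-27886444, + strand): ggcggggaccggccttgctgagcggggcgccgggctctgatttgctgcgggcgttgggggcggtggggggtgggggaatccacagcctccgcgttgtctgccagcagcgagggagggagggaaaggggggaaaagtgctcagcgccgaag
In Lor, Ivl and Krtdap both strings lie in the window, in Krt10 TATAAA alone, and in Col1a2 and Col5a1 neither. TATAAA on the gene's strand begins 27, 29, 30 and 26 bases before the start of Lor, Ivl, Krtdap and Krt10. Searched over both strands in the full 300-base windows, TATAAA occurs in 13.6% and TGACTCA in 5.2% of all 32851 RefSeq promoters. Of 25 differentiation genes with a RefSeq promoter of 29 tested, 8 hold TATAAA and 5 TGACTCA. Of 15 matched collagens of 20, 1 holds each: Col3a1 the first and Col6a1 the second. Among other epidermal lists, TATAAA is in 5 of 14 matched basal and wound keratinocyte genes. It is in none of 14 lipid barrier genes and none of 12 epithelial factors. Among dermal lists it is in 5 of 15 fibroblast and 3 of 12 collagen processing genes, so the printed windows do not stand for their layers. These are matches of letters, and no binding was measured.

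**Figure D2:**
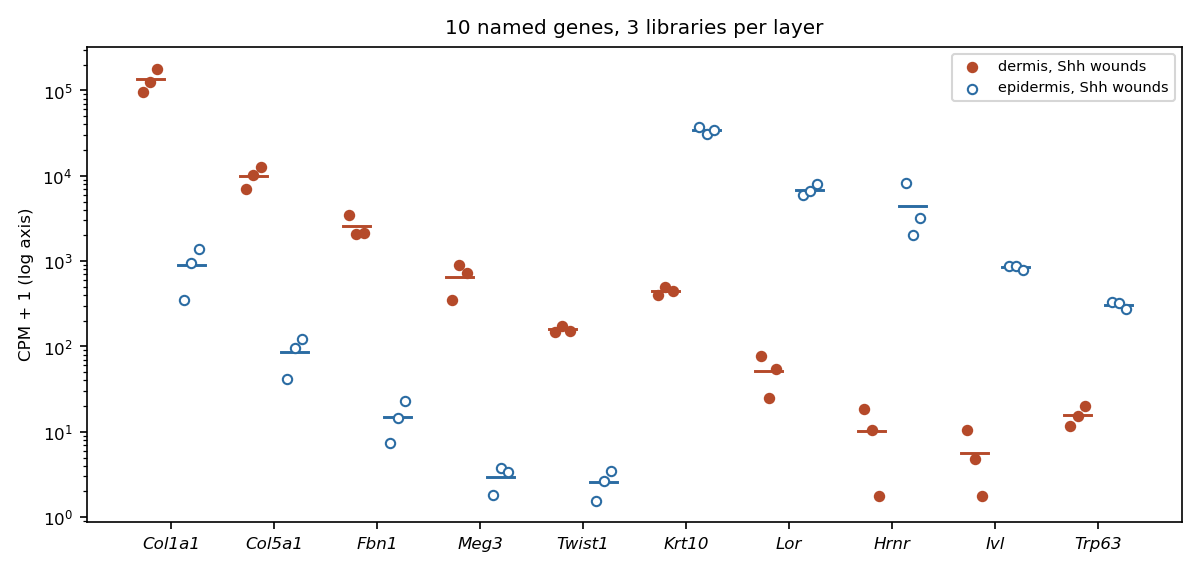
CPM on a log axis of 10 genes named in the text in each Shh wound library, with dermis (filled) left of epidermis (open) for each gene and a bar at the mean of each layer; 1 CPM was added so that zeros can be drawn. The layers do not overlap for any of the 10 genes, and the dermal values of Hrnr and Ivl spread more between animals than those of Krt10.

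Keratins of the basal layer and of wounded epidermis differed less than the envelope. Of 21 such genes, 2 were higher in dermis and 18 in epidermis. Krt5, the basal partner keratin, had 219, 500.3 and 345 CPM in dermis, against 4421, 4228 and 2825 CPM in epidermis (−3.48 ± 0.37), which is 10.8-fold, where Krt1 of the suprabasal layers was 60.3-fold higher in epidermis (541, 716 and 819 CPM in dermis, against 37630.3, 40924 and 46673 CPM in epidermis). Krt6a, Krt6b and Krt16, induced when epidermis is injured, differed by −5.03, −6.54 and −5.88, and reads of Krt6a and Krt6b may be shared between these near-identical copies. The exceptions were dermal: Plaur, the urokinase receptor, had 81.3, 45.5 and 43.6 CPM in dermis, against 6.94, 6.02 and 6.28 CPM in epidermis (2.91 ± 0.31, adjusted p = 0.00043), and Itga5, a chain of the fibronectin receptor, differed by 2.31 ± 0.31. Of 28 genes of desmosomes, adherens and tight junctions, 22 were higher in epidermis. Dsp, the desmosomal plaque protein, had 374, 388 and 494 CPM in dermis, against 10817, 14713 and 15806 CPM in epidermis (32.9-fold). The 3 dermal ones were Cdh11 and Cdh2, cadherins of mesenchymal cells, and Cldn5, the claudin of endothelium. Cldn5 had 11.3, 11.5 and 8.67 CPM in dermis and no read in any epidermis library, a dermal level at least 97.1-fold above the floor of 3 reads over the epidermis libraries.

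Transcription factors split by layer as well. All 26 epithelial factors listed were higher in epidermis, and 23 of 28 tested mesenchymal factors were higher in dermis, with 1 in epidermis. Trp63, the master factor of stratified epithelium, had 10.7, 14.49 and 18.9 CPM in dermis, against 329, 319 and 273 CPM in epidermis (−4.33 ± 0.28). Klf4, which acts late in barrier formation, had 86.8, 54.6 and 37.2 CPM in dermis, against 556, 689 and 752 CPM in epidermis (−3.53 ± 0.36), a dermal share above those of Trp63 and Grhl1 (−5.25 ± 0.43). Esrp1, a splicing factor of epithelia listed with them, differed by −5.68 ± 0.24. Among dermal factors, Twist1 had 149, 173 and 151 CPM in dermis, against 0.555, 1.63 and 2.51 CPM in epidermis (101-fold), and Twist2, Prrx1 and Zeb2, all of mesenchyme, differed by 5.46, 5.55 and 5.71. Pitx1, known as a hindlimb factor, went the other way with 0.164, 0 and 0 CPM in dermis, against 2.59, 2.96 and 5.02 CPM in epidermis (−2.07 ± 0.28, adjusted p = 0.0013). Its dermal value rests on 1 read in all.

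Most genes of the Hedgehog pathway were detected in both layers. Of 14 tested members, 6 were higher in dermis and none in epidermis, against 17.5% and 22.5% of all genes. Shh, whose count includes any transcript of the transgene and of the native gene that maps to it, had 5.24, 1.25 and 5.61 CPM in dermis, against 9.25, 7.35 and 10.7 CPM in epidermis. Every epidermis value lay above every dermis value, but the difference of −1.15 ± 0.46 was no call (adjusted p = 0.09). Without the dermis of animal Tg-9233 it was called (adjusted p = 0.019 without dermis Tg-9233). The dermal level of Shh was 56.7, 17 and 52.2% of the epidermal one, above the share of Krt14 in each animal. The dermal value of Tg-9231 rests on few reads, as 1 read there is 0.125 CPM. Krt71, an inner root sheath keratin whose values are given below, also exceeded the Krt14 share in each animal. The source of the dermal Shh reads was not tested. The targets were nearer still. Gli1, whose transcript reads out pathway activity, had 29.7, 32.2 and 34.9 CPM in dermis, against 38.4, 35.1 and 43.4 CPM in epidermis, a difference of −0.26 ± 0.23 (adjusted p = 0.39). Ptch1, the receptor and target, had 85.5, 105 and 92.1 CPM in dermis, against 119, 90.9 and 118 CPM in epidermis, and the layers overlapped (−0.21 ± 0.24, adjusted p = 0.52). Gli2, a GLI factor known chiefly as an activator, stood at −0.45 ± 0.32 (adjusted p = 0.29), which was no call, and was called epidermal when the dermis of animal Tg-9233 was left out (adjusted p = 0.025 without dermis Tg-9233). Smo and Sufu, the signal transducer and the inhibitor of GLI proteins, differed by 0.35 ± 0.26 and 0.16 ± 0.28, and neither was called.

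Of 6 members called dermal, 3 are co-receptors. Cdon, a co-receptor that helps Patched bind the ligand, had 296, 458 and 353 CPM in dermis, against 27.8, 27.9 and 22.5 CPM in epidermis (3.76 ± 0.26, adjusted p = 7.8e-05). Boc, its relative, had 79.3, 104 and 97.4 CPM in dermis, against 25.7, 33.8 and 31.7 CPM in epidermis (1.59 ± 0.25), and Gas1, a membrane-anchored co-receptor, had 304, 360.4 and 362 CPM in dermis, against 172, 126 and 154 CPM in epidermis (1.18 ± 0.24). Gli3, the GLI factor known chiefly as a repressor, had 99.958, 130.5 and 66.3 CPM in dermis, against 21.4, 18.7 and 17.4 CPM in epidermis (2.26 ± 0.31, adjusted p = 0.0014). The others were Dhh, the ligand made by Schwann cells, with 5.74, 2.87 and 4.59 CPM in dermis, against 0.555, 0.102 and 0.977 CPM in epidermis, and Hhat, the acyltransferase of Hedgehog ligands, at 1.57 ± 0.29. Ihh and Hhip, a ligand and a decoy receptor, stayed under a mean of 1 CPM and were not tested. None of 12 members with a RefSeq promoter holds the GLI letters searched (GACCACCCA, both strands) in its 300-base window, where 0.253% of all promoters do.

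**Figure D3:**
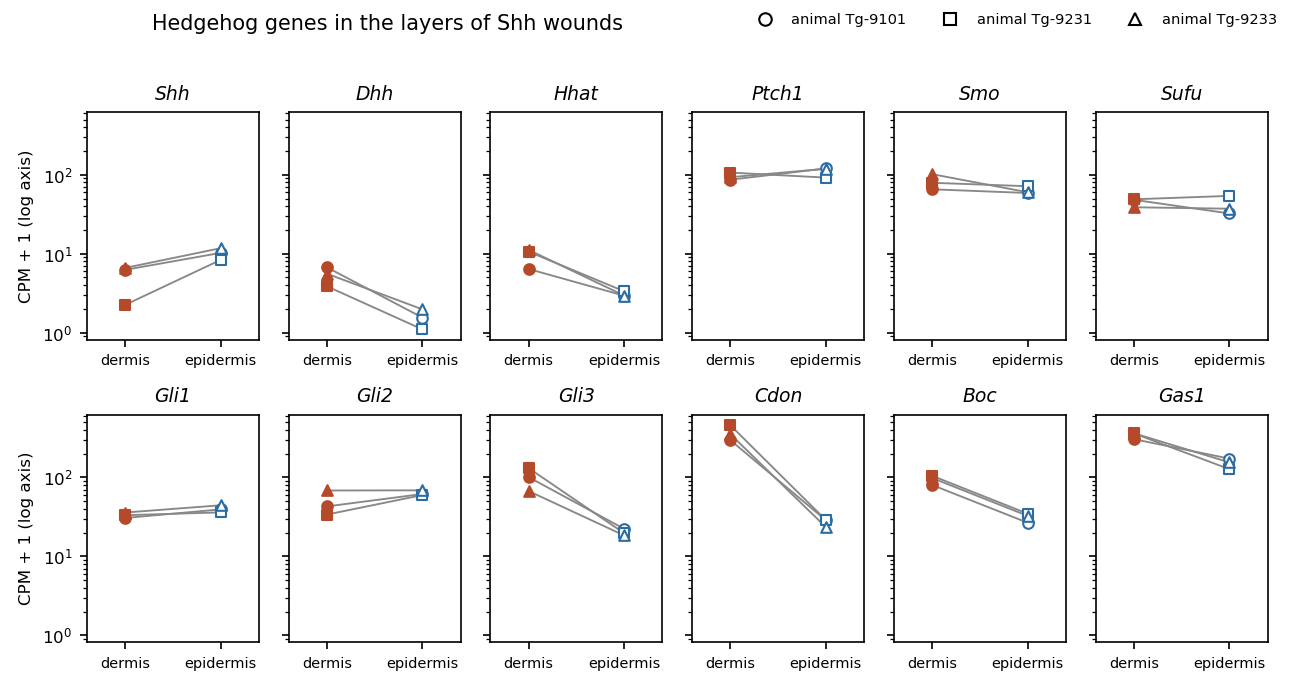
CPM on a log axis of 12 Hedgehog genes named in the text in the dermis (left, filled) and epidermis (right, open) of animals Tg-9101, Tg-9231 and Tg-9233, with a line joining the layers of an animal. Lines for Gli1, Ptch1, Smo and Sufu slope little or cross, those for Cdon, Boc, Gas1, Gli3, Hhat and Dhh fall toward epidermis in every animal, and those for Shh rise.

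Wnt ligands and their modulators were mostly called in opposite layers. Of 14 tested ligands, 3 were higher in dermis and 8 in epidermis (median −1.87), and of 10 secreted inhibitors and agonists 7 were higher in dermis and 1 in epidermis (median 3.05). Over all genes these shares were 17.5% in dermis and 22.5% in epidermis, so the dermal count of ligands was near that of all genes. Wnt4 had 16.4, 18.7 and 22.7 CPM in dermis, against 143, 158 and 109.5 CPM in epidermis (−2.76 ± 0.26, adjusted p = 0.00027). Wnt7b, with 3.61, 7 and 27 CPM in dermis, against 163, 185 and 161 CPM in epidermis, and Wnt3, at −4.93 ± 0.71, were epidermal too, as was Wnt10a (−1.65 ± 0.33), a ligand needed in skin appendages. The epidermal calls of Wnt16 (adjusted p = 0.046) and Wnt3a (adjusted p = 0.021) depended on single libraries (adjusted p = 0.14 without epidermis Tg-9101, 0.11 without epidermis Tg-9231 and 0.12 without epidermis Tg-9233 for Wnt16 and 0.064 without dermis Tg-9231, 0.069 without epidermis Tg-9101, 0.081 without epidermis Tg-9231 and 0.063 without epidermis Tg-9233 for Wnt3a). With all libraries, Wnt16 also lost its call with a smaller pseudocount, without a filter, under both rescalings and in edgeR and DESeq2 (adjusted p = 0.052 to 0.099), and Wnt3a in edgeR (adjusted p = 0.087). Dermal ligands were Wnt5a, the main noncanonical one, with 118, 184 and 121 CPM in dermis, against 34.3, 37.7 and 41 CPM in epidermis (1.85 ± 0.27), Wnt11 (2.16 ± 0.22) and Wnt9a (3.93 ± 0.32).

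Among the modulators, Dkk3 had 158, 223 and 171 CPM in dermis, against 7.03, 8.17 and 6.98 CPM in epidermis (24.9-fold), and Sfrp2, a soluble Wnt-binding protein of fibroblasts, had 51.8, 117 and 85.7 CPM in dermis, against 0.74, 0.51 and 1.67 CPM in epidermis (87-fold). Of R-spondins, which amplify Wnt signals through LGR receptors, Rspo1, Rspo3 and Rspo4 were all dermal, at 3.06, 3.03 and 3.84. The epidermal modulator was Sostdc1, an inhibitor of Wnt and BMP made in follicle epithelium, with 4.26, 3 and 0.51 CPM in dermis, against 53.9, 23 and 61.5 CPM in epidermis (−3.78 ± 0.58). Of 14 tested effectors and targets of Wnt signalling 7 were higher in dermis and 3 in epidermis (median 0.79), against 17.5% and 22.5% of all genes. Axin2, a feedback target, had 144, 159.9 and 173 CPM in dermis, against 61.1, 78.3 and 70.7 CPM in epidermis (1.17 ± 0.23, adjusted p = 0.0071), and Nkd1 and Nkd2 differed by 4.97 ± 0.30 and 4.38 ± 0.29. Znrf3 and Rnf43, the ligases that remove Frizzled receptors, were epidermal at −2.79 ± 0.46 and −3.67 ± 0.35. The LGR receptors parted, with Lgr5 dermal (40.0, 78.8 and 93.1 CPM in dermis, against 4.16, 2.76 and 10.04 CPM in epidermis) and Lgr6 epidermal (1.64, 3.5 and 14 CPM in dermis, against 49.2, 38.1 and 34.3 CPM in epidermis). Lef1 had 7.05, 4.62 and 16.1 CPM in dermis, against 4.63, 6.02 and 6.84 CPM in epidermis and was no call (adjusted p = 0.45).

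BMP and TGF-beta genes leaned to the dermis, with 15 of 25 tested higher there and 4 higher in epidermis (median 1.74). Over all genes these shares were 17.5% and 22.5%. All 3 TGF-beta ligands were dermal: Tgfb1 had 120.1, 82.6 and 82.6 CPM in dermis, against 19, 22.6 and 13.7 CPM in epidermis (2.31 ± 0.30), Tgfb3 differed by 2.70 ± 0.29 and Tgfb2 by 1.23 ± 0.22. Grem1, a BMP antagonist, had 77.5, 85.3 and 52.8 CPM in dermis, against 1.02, 1.12 and 0.419 CPM in epidermis (84.3-fold). Of the BMP ligands, Bmp4 was dermal (12.9, 13.4 and 10.5 CPM in dermis, against 4.53, 5.61 and 5.58 CPM in epidermis, 1.08 ± 0.23) and Bmp7 epidermal (11.3, 11.2 and 18.9 CPM in dermis, against 51.2, 60.7 and 58 CPM in epidermis, −1.997 ± 0.28, adjusted p = 0.0016). Fst, the activin antagonist, was called epidermal (−1.31 ± 0.38, adjusted p = 0.032), a call lost with the animal as a block (adjusted p = 0.072) and when single libraries were left out (adjusted p = 0.11 without epidermis Tg-9101 and 0.12 without epidermis Tg-9233). Id4, a BMP target that inhibits helix-loop-helix factors, had 10.3, 6.75 and 0 CPM in dermis, against 67.9, 41.2 and 87.2 CPM in epidermis, and its call (adjusted p = 0.015) was lost when single libraries were left out (adjusted p = 0.059 without epidermis Tg-9101 and 0.062 without epidermis Tg-9233).

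Receptors of the FGF family were divided by layer, and the EGF family receptors named here were epidermal. Fgfr1 had 264, 461 and 371 CPM in dermis, against 25.7, 29.6 and 41 CPM in epidermis (3.46 ± 0.31), and Fgfr4 had 111, 134 and 132 CPM in dermis, against 1.57, 1.02 and 1.81 CPM in epidermis (85.6-fold). Fgfr3 stood opposite with 10.3, 14.6 and 13.8 CPM in dermis, against 217, 338 and 216 CPM in epidermis (19.9-fold), and Fgfr2, whose splice forms serve both layers, overlapped (−0.48 ± 0.28, adjusted p = 0.21). Of the ligands, Fgf22 and Fgf1 were epidermal at −4.38 ± 0.27 and −3.30 ± 0.33, as was Fgfbp1, a carrier that frees FGFs from the matrix, at −4.45 ± 0.37. Fgf7, Fgf9, Fgf10 and Fgf20 stayed under the 1 CPM mean, so no comparison was possible, and the largest of the 6 values for Fgf9 was 0.328 CPM. In the EGF family 1 of 11 was higher in dermis and 7 in epidermis (median −2.55). Ereg, an autocrine ligand of keratinocytes, had 0.328, 0.375 and 0 CPM in dermis, against 188, 134 and 158 CPM in epidermis (683-fold, −7.03 ± 0.26), and Tgfa had 1.97, 2 and 0 CPM in dermis, against 75, 78.1 and 77.3 CPM in epidermis. The receptors Egfr, Erbb2 and Erbb3 differed by −2.37 ± 0.22, −2.55 ± 0.26 and −3.32 ± 0.27. Nrg1, a ligand of Erbb3, was dermal with 15.7, 14.2 and 15.8 CPM in dermis, against 1.85, 2.55 and 0.977 CPM in epidermis (2.58 ± 0.29, adjusted p = 0.00053).

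Of 38 other tested paracrine genes, 17 were higher in dermis and 9 in epidermis, against 17.5% and 22.5% of all genes. Pdgfra and Pdgfrb, the platelet-derived growth factor receptors of fibroblasts and pericytes, were 127-fold and 126-fold higher in dermis. Of their ligands, Pdgfd (4.50 ± 0.29) and Pdgfc (1.71 ± 0.27) were dermal. Pdgfa overlapped, with 13.3, 14.49 and 65.3 CPM in dermis, against 19.5, 17.1 and 19.1 CPM in epidermis (adjusted p = 0.69). Pdgfb was called epidermal (−1.36 ± 0.41, adjusted p = 0.039) but not without 1 of 4 libraries (adjusted p = 0.0502 without dermis Tg-9231, 0.078 without epidermis Tg-9101, 0.14 without epidermis Tg-9231 and 0.11 without epidermis Tg-9233). Notch1 and Notch2 and the ligands Jag1, Jag2 and Dll1 were epidermal, at −1.55, −1.24, −1.21, −2.23 and −1.51. The chemokine Cxcl12 had 42.1, 74.5 and 56.4 CPM in dermis, against 0.463, 1.12 and 0.698 CPM in epidermis (75.8-fold). Sema3a, a guidance cue for axons and vessels, had 75.2, 149.8 and 77 CPM in dermis, against 0.0925, 1.02 and 0.698 CPM in epidermis (5.96 ± 0.39). Il34, the keratinocyte ligand of Csf1r, was epidermal (−1.47 ± 0.28) and Csf1r dermal (1.45 ± 0.31). Vegfa was called epidermal (−1.69 ± 0.44, adjusted p = 0.021) and its receptor Kdr dermal (4.03 ± 0.40). The Vegfa call was lost with the animal as a block (adjusted p = 0.061) and without 1 of 3 libraries (adjusted p = 0.068 without dermis Tg-9231, 0.085 without epidermis Tg-9231 and 0.088 without epidermis Tg-9233).

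Of the ectodysplasin pathway, which starts hair placodes, none of 6 members was higher in dermis and 4 in epidermis. Edaradd, the adaptor of the receptor, had 1.47, 1.5 and 0 CPM in dermis, against 16.3, 12.7 and 10.3 CPM in epidermis (−2.92 ± 0.42), and Traf6 differed by −3.37 ± 0.53. The receptor Edar itself was scarce, with 0.328, 0.625 and 0 CPM in dermis, against 3.05, 1.43 and 2.37 CPM in epidermis (adjusted p = 0.015, and 0.066 without epidermis Tg-9233). Its ligand Eda had 6.23, 12 and 6.89 CPM in dermis, against 3.61, 4.59 and 5.58 CPM in epidermis and was not called (adjusted p = 0.12).

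**Figure D4:**
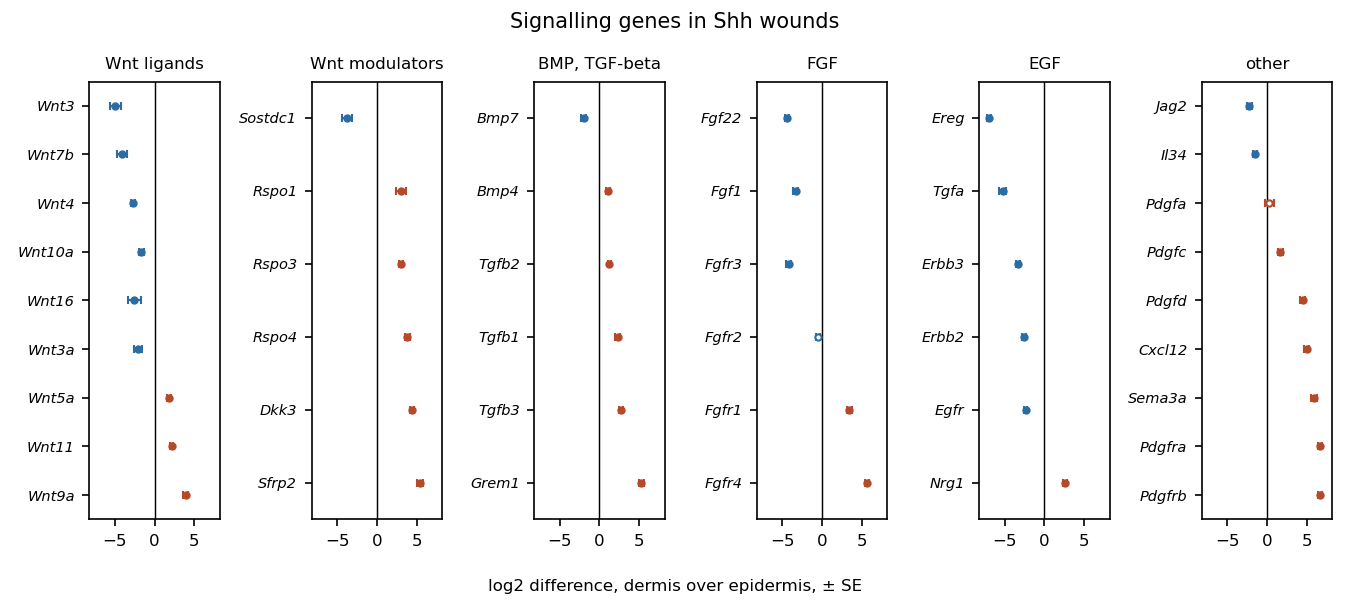
Log2 difference of dermis over epidermis ± SE (limma) for named signalling genes of Shh wounds, by family, with filled points where the gene was called and open points where it was not. Wnt ligands other than Wnt5a, Wnt11 and Wnt9a lie left of 0 (epidermal), and Wnt modulators other than Sostdc1, Grem1, TGF-beta ligands and PDGF receptors right of it.

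Genes of the hair condensate leaned to dermis and genes of the placode to epidermis. Of 21 tested papilla and condensate genes, 13 were higher in dermis and none in epidermis (median 1.77). The list does not hold Bmp7, which the study counts among papilla genes and which was called epidermal, as given above. Crabp1, a retinoic acid-binding protein of papillary and papilla fibroblasts, had 123, 243 and 260.1 CPM in dermis, against 3.42, 6.02 and 7.95 CPM in epidermis (36-fold). Trps1, a zinc finger factor of the follicle mesenchyme, had 352, 255 and 248 CPM in dermis, against 50.9, 46.9 and 59.3 CPM in epidermis (2.41 ± 0.26), and Enpp2 and Lamc3, also of the condensate, differed by 3.57 ± 0.27 and 3.27 ± 0.29. Sox2, a papilla factor, was under the 1 CPM mean, with 2.13, 0.875 and 0 CPM in dermis and no read in epidermis. Of 23 placode and follicle stem cell genes, 6 were higher in dermis and 13 in epidermis. Vwa2 had 2.46, 2.87 and 0 CPM in dermis, against 57, 53.1 and 44.4 CPM in epidermis (−4.46 ± 0.53), and Trp73 and Cxcl14 differed by −3.06 ± 0.49 and −2.53 ± 0.28. Not every placode gene lay on the epidermal side. Nedd9 was dermal (80.3, 67.7 and 71.7 CPM in dermis, against 19.2, 22.7 and 15.6 CPM in epidermis, 1.89 ± 0.25) and Samd5 overlapped (−0.20 ± 0.39, adjusted p = 0.7). Tnfaip3, an inhibitor of NF-kappaB, ranged widely with animal in both layers, at 315, 64.6 and 29.3 CPM in dermis, against 72.5, 40.1 and 26.5 CPM in epidermis (adjusted p = 0.4).

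Keratins of the hair shaft and inner root sheath stood apart in a single library. Over the 27 listed genes the summed level was 70.0, 68.6 and 373 CPM in dermis, against 552, 712 and 581 CPM in epidermis, so the dermis of animal Tg-9233 lay far above the other dermis libraries and below every epidermis library. Krt71 had 7.05, 11.7 and 86.5 CPM in dermis, against 37.5, 61 and 31.7 CPM in epidermis, and Krt25 had 6.23, 7 and 49.2 CPM in dermis, against 23.7, 30.2 and 18.6 CPM in epidermis. Neither was called with all 6 libraries (adjusted p = 0.37 and 0.43), and both were epidermal without that library (adjusted p = 0.001 without dermis Tg-9233 for Krt71 and 0.00072 without dermis Tg-9233 for Krt25). The 27 listed genes also include transcription factors and other follicle genes. Of 15 tested, 6 were epidermal, most of them transcription factors rather than keratins. Leaving out 1 library moved this count between 5 and 15. The part of these keratins in the other differences of that library was not tested.

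Marker genes of vessels, macrophages and mast cells were mostly higher in dermis. Of 19 tested genes of blood vessel endothelium 17 were higher in dermis and none in epidermis, and their summed level was 860, 1122 and 870 CPM in dermis, against 21.5, 26.2 and 26.8 CPM in epidermis. Vwf had 137, 225 and 181 CPM in dermis, against 1.67, 2.55 and 2.79 CPM in epidermis (77.4-fold), and Pecam1 and Cdh5, junction proteins of endothelium, differed by 3.92 ± 0.26 and 5.21 ± 0.26. Of 7 lymphatic genes 5 were dermal, among them Prox1, the factor that sets lymphatic identity (1.83 ± 0.30). The exception, Tbx1, was epidermal (−2.11 ± 0.41). Of 14 genes of Schwann cells and nerve 7 were dermal, led by Ncam1 (3.60 ± 0.48), and 2 epidermal, Erbb3 and L1cam, an adhesion molecule of axons whose call (adjusted p = 0.016) was lost without 1 of 2 libraries (adjusted p = 0.068 without epidermis Tg-9231 and 0.065 without epidermis Tg-9233).

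Of 18 genes of smooth muscle and myofibroblasts 14 were dermal, with Rgs5 of pericytes at 423, 273 and 127 CPM in dermis, against 1.3, 1.22 and 1.12 CPM in epidermis (226-fold). Of 23 fibroblast genes 16 were dermal, and Vim, the intermediate filament of mesenchyme, had 1966, 1871 and 1529.7 CPM in dermis, against 109.9, 139 and 102 CPM in epidermis. Gsn, the actin-severing gelsolin, was the epidermal member of that list at −1.67 ± 0.27. Of 9 tested melanocyte genes 2 were dermal and 5 epidermal, against 17.5% and 22.5% of all genes. With trimmed-mean scaling 3 were dermal and 4 epidermal. Over the 12 listed genes the summed level overlapped between layers, with 113, 86.3 and 68.4 CPM in dermis, against 111, 60.9 and 81.8 CPM in epidermis. Tyrp1, a pigment enzyme, had 2.13, 1.5 and 0 CPM in dermis, against 15.7, 5.82 and 11.3 CPM in epidermis (−2.50 ± 0.53).

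Of 19 macrophage and dendritic cell genes 17 were dermal and 1 epidermal. Lyz2 had 315, 148 and 139.5 CPM in dermis, against 1.57, 2.96 and 5.44 CPM in epidermis (5.54 ± 0.47), and Mrc1, the mannose receptor of tissue macrophages, had 185, 116 and 77.3 CPM in dermis, against 0.278, 0.408 and 1.53 CPM in epidermis (170.01-fold). The one epidermal member, Arg1, is also known as an enzyme of keratinocytes, and had 1.15, 0.5 and 0 CPM in dermis, against 135, 111 and 92.8 CPM in epidermis (−6.25 ± 0.35). Mast cell genes were dermal for 7 of 8, with a summed level of 1226, 482 and 269 CPM in dermis, against 13.2, 8.37 and 11.7 CPM in epidermis. Mcpt4, a mast cell protease, had 255, 124 and 82.4 CPM in dermis, against 0.278, 1.22 and 0 CPM in epidermis (6.61 ± 0.50), and the dermis of animal Tg-9101 was highest for Mcpt4, Cma1, Cpa3, Tpsb2 and Hdc alike.

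Calls among genes of MHC class II presentation depended on the fit, and few genes of Langerhans and T cells were called. Of 8 genes of MHC class II presentation 2 were dermal, but 5 with trimmed-mean scaling, 6 in edgeR and 6 in DESeq2, and 1 to 6 with 1 library left out. Cd74, the invariant chain, had 1267, 552 and 581 CPM in dermis, against 300.3, 459.6 and 324 CPM in epidermis (adjusted p = 0.073, and 0.022 without dermis Tg-9233, a dermal call). Cd74 was also called dermal under both rescalings and in edgeR and DESeq2 (adjusted p = 0.00084 to 0.037). Of 19 genes of Langerhans and T cells 3 were dermal and 2 epidermal, against 17.5% and 22.5% of all genes. Cd207, the langerin of Langerhans cells, had 11, 5 and 0 CPM in dermis, against 40.9, 39.8 and 17.9 CPM in epidermis, a call (adjusted p = 0.04) that was lost without 1 of 4 libraries (adjusted p = 0.067 without dermis Tg-9231, 0.13 without epidermis Tg-9101, 0.13 without epidermis Tg-9231 and 0.07 without epidermis Tg-9233). Of 21 cytokine and neutrophil genes 4 were dermal and 4 epidermal, shares near the 17.5% and 22.5% of all genes, and the dermal count moved between 2 and 13 when 1 library was left out. Il18 had 4.42, 1.12 and 0 CPM in dermis, against 218, 83.7 and 100.4 CPM in epidermis (−5.77 ± 0.67) and Il1a differed by −3.79 ± 0.63. Il1b overlapped between layers across animals, at 153, 28.5 and 29.8 CPM in dermis, against 29.3, 5.21 and 4.46 CPM in epidermis (adjusted p = 0.076), but was higher in dermis within each animal and called with the animal as a block (adjusted p = 0.0032). Leaving out the dermis of Tg-9233 or the epidermis of Tg-9101 also gave a call (0.026 without dermis Tg-9233 and 0.037 without epidermis Tg-9101).

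Matrix proteases and their inhibitors were dermal for 18 of 25 tested and epidermal for 1. Mmp14, the membrane-bound collagenase, had 872, 1354 and 1558 CPM in dermis, against 58.9, 68.5 and 53.6 CPM in epidermis (4.33 ± 0.30). Its substrate Mmp2, a gelatinase, had 724, 1084 and 1039 CPM in dermis, against 40.6, 36.3 and 42.7 CPM in epidermis (23.8-fold), and Mmp11 and Timp2 differed by 5.65 ± 0.41 and 4.29 ± 0.28. Mmp28, an epithelial metalloproteinase, was the epidermal one (−2.34 ± 0.71, adjusted p = 0.038, and 0.11 without epidermis Tg-9101, 0.13 without epidermis Tg-9231 and 0.074 without epidermis Tg-9233).

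Genes that any cell uses were called in epidermis more often than in dermis. Ribosomal protein genes were higher in dermis for none and in epidermis for 18 of 32 tested (median −1.28). Nuclear genes of oxidative phosphorylation were higher in epidermis for 8 of 25 (median −0.82). Over all genes 22.5% were higher in epidermis, and the median was −0.35. With 1 library left out the ribosomal count moved between 2 and 24 and the oxidative phosphorylation count between 2 and 12. Atp5b had 322, 295 and 234 CPM in dermis, against 543, 599.8 and 529 CPM in epidermis (−0.98 ± 0.24, adjusted p = 0.017, and 0.056 without epidermis Tg-9101, 0.073 without epidermis Tg-9231 and 0.063 without epidermis Tg-9233). Of 30 genes of DNA replication 1 was dermal and 3 epidermal, and of 28 of mitosis 1 was epidermal. Mki67, present in cycling cells, had 189, 104 and 72.7 CPM in dermis, against 209, 156 and 201 CPM in epidermis (adjusted p = 0.18, and 0.035 without dermis Tg-9101, an epidermal call). Immediate early genes overlapped as well: Fos had 405, 294 and 101 CPM in dermis, against 452, 167 and 132 CPM in epidermis (0.09 ± 0.66, adjusted p = 0.92). Of 20 such genes 2 were dermal and 3 epidermal, against 17.5% and 22.5% of all genes.

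Whether the layers of Shh wounds differ by another amount than those of WT wounds was asked with the interaction of tissue and genotype, over 12 libraries and 15340 genes. It called none (0%; 606 genes at an unadjusted p under 0.05, smallest adjusted p = 0.938), and edgeR's quasi-likelihood test on the recovered reads called none either (688 unadjusted), while DESeq2 called 16. The genes nearest to a call were Capn6, at −2.93 ± 0.62 for the tissue difference of Shh wounds minus that of WT wounds, and Lrfn5, at 3.03 ± 0.69 (adjusted p = 0.94 and 0.94). Capn6 had 12.5, 9.75 and 7.4 CPM in dermis and 3.52, 1.53 and 3.21 CPM in epidermis of Shh wounds, against 31.5, 16.5 and 39.8 CPM in dermis and 0, 1.09 and 0 CPM in epidermis of WT wounds. Gli1 had 29.7, 32.2 and 34.9 CPM in dermis and 38.4, 35.1 and 43.4 CPM in epidermis of Shh wounds, against 17.9, 14.4 and 5.68 CPM in dermis and 36, 7.61 and 2.34 CPM in epidermis of WT wounds, with an interaction of −0.55 ± 0.99. The split of Gli1 between the layers was not called different (adjusted p = 0.95). For Shh the interaction was −1.64 ± 0.87 (adjusted p = 0.94). A p that misses the threshold does not show that the splits were alike, and the WT libraries were shallow, with 1407498 to 3752046 reads in dermis and 2135041 to 7354990 in epidermis, and 3 of the 6 had reads for only 11179 to 14178 genes.

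Against E14.5 skin the split did differ, for 5085 of 16411 genes (31.0%), with 2063 (12.6%) more dermal in Shh wounds and 3022 (18.4%) more epidermal. The embryonic libraries come from another age and were handled as another group, so age, wound and transgene cannot be told apart. Barrier genes parted more in wounds: 19 of 29 envelope genes and 14 of 18 lipid barrier genes had a negative interaction and none a positive one. Cdsn had 12.6, 5.62 and 4.08 CPM in dermis and 2034, 2374 and 1751 CPM in epidermis of Shh wounds, against 0.107, 0.276, 0.248 and 0.228 CPM in dermis and 0.383, 0.424, 0 and 0.188 CPM in epidermis of E14.5 skin, an interaction of −8.02 ± 0.38 (adjusted p = 1.9e-08). Kprp, a keratinocyte proline-rich protein, and Tgm5, a transglutaminase of the envelope, followed at −7.16 ± 0.25 and −5.49 ± 0.20, and Il1f6, an interleukin of keratinocytes, at −6.81 ± 0.28. Collagens parted more as well, with 14 of 20 positive and none negative, and Col5a1 at 4.41 ± 0.44 (adjusted p = 7.8e-06).

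Among the genes more dermal in Shh wounds was H19, a fetal noncoding RNA largely silenced after birth. It had 335, 272 and 475 CPM in dermis and 3.89, 4.08 and 4.32 CPM in epidermis of Shh wounds, against 7458, 5872, 6692 and 8362 CPM in dermis and 6741, 6505, 7055 and 7046 CPM in epidermis of E14.5 skin. Both embryonic layers held it at a high level, and in the wound every dermis value lay above every epidermis value (6.07 ± 0.26, adjusted p = 8.1e-09). Cdon was more dermal in the wound than in the embryo (3.05 ± 0.23, adjusted p = 7.1e-07), with 335, 346, 318 and 297 CPM in dermis and 209, 212, 174 and 195 CPM in epidermis of E14.5 skin. Wnt5a was less dermal in the wound: its interaction was −2.16 ± 0.36 (adjusted p = 0.00057), and the embryo had 219, 262, 242 and 170.3 CPM in dermis and 16.9, 15.3, 7.41 and 13.6 CPM in epidermis. The median difference of 20 immediate early genes was −0.05 in Shh wounds and 2.67 in E14.5 skin, so that the list lay to the dermis in the embryo and to neither layer in the wound. The interaction was negative for 14 of 19 and positive for 1, with Egr1 at −3.54 ± 0.51 (adjusted p = 0.00016).

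**Figure D5:**
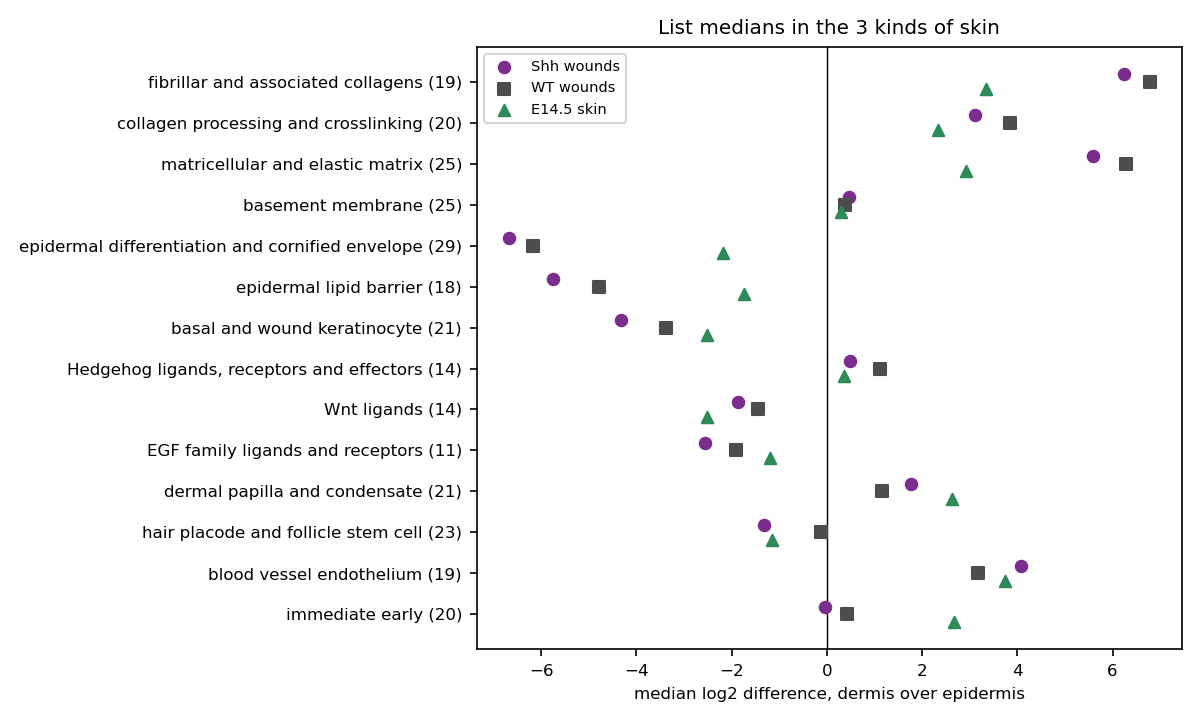
Median log2 difference of dermis over epidermis of 14 gene lists in Shh wounds (circles), WT wounds (squares) and E14.5 skin (triangles), computed from group means of log2(CPM + 1). Medians of Shh and WT wounds differ by at most 1.18, for placode and follicle stem cell genes, and the E14.5 medians lie nearer to 0 than both for envelope, lipid barrier and collagen genes.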

How the data were processed

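Total RNA of the dermis and epidermis of Shh wounds, WT wounds and E14.5 skin was depleted of ribosomal RNA and sequenced from both ends with a strand-marking kit. The authors aligned and counted the reads with Bowtie, SAMtools and HTSeq on NCBIM37 (no version of these is given in the labels or methods) and deposited CPM, the counts of a gene per 1000000 counts of its library, for 19807 genes. A CPM value is a share of its library, so genes that take many reads lower all others. Every deposited CPM value came out as a whole number of reads within 0.01, and these recovered reads gave the depths and the count tests. The deposited tables also hold the authors' own log2 fold changes with their p-values and FDR, none of which was used, nor was 1 CPM column that belongs to no sample given here.

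Genes averaging 1 CPM or more over the libraries fitted entered limma (version 3.58.1, R version 4.3.3) as log2(CPM + 1), without a trend, with Benjamini-Hochberg adjustment over all genes tested and a threshold of 0.05. The layers of Shh wounds were fitted on their 6 libraries, and the difference of tissue differences on 12 wound libraries (Shh against WT) or 14 libraries (Shh wounds against E14.5 skin). Alternatives were the animal as a block, other pseudocounts, filters and scalings, limma's trend, edgeR 4.0.16 and DESeq2 1.42.0 on the recovered reads, libraries left out, and a fit of all wound libraries. The code was tested on simulated data. A same number in both tissues was read as the same animal. Deviations of same-numbered libraries from their group means correlated at 0.33, −0.003 and 0.091 over 15454 genes for Tg-9101, Tg-9231 and Tg-9233, and the block was kept as an alternative. The study counts more wounds than libraries, so a library may pool wounds, and p-values measure the spread between these libraries. The ± SE are limma's and likewise reflect the spread between the libraries fitted, whereas floors cover counting error only.

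The members and lists were chosen with earlier results of these data known. Named genes were the 12 largest differences in each direction (called, mean of at least 10 CPM in the higher layer, no overlap), genes the study names, the 6 most abundant members and up to 3 opposed members of a list, any member of the signalling lists, and the leading genes of the differences between groups. Some members of the signalling lists are not reported here by name. Krtdap, Sox2 and Col6a1 were named after their values had been seen. Promoters are RefSeq windows on GRCm38.p6, from 250 bases before to 50 after the start, and no coordinate was converted between builds.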

Additional observations from a re-analysis of the deposited data

Results flagged for a closer look

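Results are listed here where a test found the tissue difference to differ between groups. The tissue difference of Shh wounds differed from that of E14.5 skin, by limma's test of the interaction, for 5085 genes, and 9 genes named in the report are among them. These values compare whole groups of libraries of other ages and handling, so age, wound and transgene cannot be told apart. More dermal in Shh wounds were H19 (6.07), Col5a1 (4.41) and Cdon (3.05). More epidermal in Shh wounds, or less dermal, were Cdsn (−8.02), Kprp (−7.16), Il1f6 (−6.81), Tgm5 (−5.49), Egr1 (−3.54) and Wnt5a (−2.16), all as log2 differences of Shh wounds minus E14.5 skin. For Cdsn, both embryonic layers were near 0 CPM. For H19, both embryonic layers were high, and the wound layers parted.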

How the results depend on the processing

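Of 191 called genes named in the text, 173 were called in the same direction in each of the 6 fits with 1 library left out. Under at least 1 other setting with all libraries 23 lost the call, and 30 were not called without both libraries of Tg-9101 and 42 without those of Tg-9231. The number of calls between the layers (6180) ran from 4240 without epidermis Tg-9233 to 8471 without dermis Tg-9233. It was 3890 without both libraries of animal Tg-9101, 2884 without those of Tg-9231 and 7293 without those of Tg-9233. It was 5458 to 6856 under the other pseudocounts, filters, scalings and tools, and 4968 when all 12 wound libraries shared a spread. With the animal as a block it was 5626, in edgeR with that block 5032, and without animal Tg-9233 with the block 8350 (the last 2 fits chosen after seeing the data). The block changed the call of 6 named genes, Lama5, Itga2, Fst, Vegfa, Il1b and Irf7, whose values stand beside their results, and of no other named gene. With 1 library left out, list counts outside 1.5 times their value were, beside those in the text, 0 to 5 dermal S100 genes (3 with all libraries), 1 to 6 dermal (4) and 0 to 4 epidermal (1) interferon-induced genes, 2 to 4 dermal (2) and 2 to 5 epidermal (5) melanocyte genes, 0 to 8 epidermal DNA replication genes (3), 0 to 3 epidermal mitosis genes (1), 0 to 3 epidermal Hedgehog genes (0), 1 to 4 epidermal BMP and TGF-beta genes (4) and 2 to 4 epidermal ectodysplasin genes (4). Other lists moved by at most 3 genes, apart from dermal paracrine genes (15 to 23, 17 with all libraries) and dermal fibroblast genes (14 to 20, 16). The interaction with genotype had 0 calls in each limma fit, the block and the fit without 4 libraries with few detected genes included, 0 in edgeR, and 16 in DESeq2 (1 positive and 15 negative), and the cause was not tested. The interaction with stage had 4372 to 6590 calls with 1 library left out and 4966 with the block. For 6 named genes, none of them called, the direction reversed. Fos ran from −0.32 to 0.68 with libraries or animals left out, Lef1 from −0.0081 to 0.82, Pdgfa from −0.40 to 0.75, Samd5 from −0.48 to 0.31 and Sufu from −0.041 to 0.38. Pdgfa was at −0.38 without animal Tg-9233, also with the block. Krt25 was at 0.027 in edgeR and 0.058 in DESeq2, and Samd5 at 0.088 and 0.076. The causes were not tested.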

Other observations

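Genes of lipid synthesis that the sebaceous gland uses fell on both sides of the wound. Of 10 tested, 4 were higher in dermis and 5 in epidermis, against 17.5% and 22.5% of all genes. Dgat2, which makes triglyceride, had 14.3, 9.5 and 8.93 CPM in dermis, against 422, 444 and 444 CPM in epidermis (−5.23 ± 0.26, adjusted p = 4.5e-05 in limma), and Acsbg1, an acyl-CoA synthetase, differed by −5.41 ± 0.47. No dermis library overlapped an epidermis library for either. On the dermal side, Soat1, which esterifies cholesterol, had 69.6, 35.5 and 23.2 CPM in dermis, against 12.4, 7.86 and 6.56 CPM in epidermis (2.04 ± 0.45, adjusted p = 0.011, and 0.051 without epidermis Tg-9231 and 0.054 without epidermis Tg-9233). Of 4 tested adipocyte genes 2 were dermal and 1 epidermal. Lpl, the lipoprotein lipase, had 175, 106 and 129 CPM in dermis, against 8.79, 3.67 and 5.58 CPM in epidermis (22.7-fold), whereas Scd1, a desaturase that sebaceous cells also use and that both lists hold, had 70.6, 35 and 51.5 CPM in dermis, against 306, 210.4 and 169 CPM in epidermis.

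Interferon-induced genes were called for 5 of 21, with 4 dermal and 1 epidermal and a median of 0.03. Over all genes 17.5% were higher in dermis and 22.5% in epidermis. Their summed level was 1840, 1967 and 2451 CPM in dermis, against 1796, 957 and 2172 CPM in epidermis, so the layers overlapped. Irf7, a factor that amplifies the interferon response, had 218, 91.3 and 220.4 CPM in dermis, against 95.2, 37.8 and 79.7 CPM in epidermis and was no call (adjusted p = 0.079 in limma, and 0.036 without dermis Tg-9231 and 0.018 with the animal as a block, both dermal calls). Oas3, a sensor of double-stranded RNA, was the epidermal one, with 14.9, 9.5 and 18.4 CPM in dermis, against 67.8, 32.7 and 92.5 CPM in epidermis (−2.02 ± 0.45, adjusted p = 0.011, and 0.052 without epidermis Tg-9101). Erythroid genes were called in neither direction for 3 tested: Hbb-b1, a beta globin, had 43.4, 16.5 and 0 CPM in dermis, against 0.463, 0.612 and 0.14 CPM in epidermis, highest in the dermis of animal Tg-9101 (adjusted p = 0.14, and 3.2e-05 without dermis Tg-9233, a dermal call). Of 4 tested skeletal muscle genes none was dermal and 1 epidermal.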
